A study of Mus musculus with 7 samples.

Results

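The 10 genes described here encode NF-kB inhibitors and atypical IkB proteins, of which the latter can restrain or support NF-kB targets. The classical IkB proteins are encoded by Nfkbia, Nfkbib and Nfkbie, and the atypical nuclear ones by Nfkbid, Nfkbiz and Bcl3. Tnfaip3, Tnip1 and Tnip3 encode the ubiquitin-editing enzyme A20 and its binding partners. Irak3 encodes the inhibitory IRAK family member known as IRAK-M. The genes were chosen by name, as the probe sets whose single gene symbol is on this list, with the brightest probe set kept for a gene. All 10 were found among 19938 measured genes, each with 1 probe set. They were measured on 7 Affymetrix arrays of macrophages sorted from the lamina propria of the colon of C57BL/6 mice aged 6 weeks.

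NF-kB is a family of dimeric transcription factors that drives inflammatory genes after Toll-like receptor or TNF receptor signals. In unstimulated cells the classical IkB proteins hold the dimers in the cytoplasm until the IKK kinase marks them for degradation, and NF-kB then switches on its own inhibitors again, Nfkbia above all. The atypical IkB proteins act in the nucleus, where they bind NF-kB on DNA and either restrain or support single target genes. In the gut, IL-10 is known to restrain the response of macrophages to bacteria, and Bcl3 and Tnip3 are known as genes that IL-10 itself can induce in macrophages.

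Control macrophages (WT) carried 1 Cx3cr1 allele replaced by GFP (Cx3cr1gfp/+). The Il10_KO array came from IL10-/- CX3CR1gfp/+ mice. The Il10ra_mKO arrays came from CX3CR1cre:IL10Raflox/flox mice, in which Cre expressed from Cx3cr1 deletes Il10ra, so that any cell with past or present Cx3cr1 expression can lose the receptor. The Cx3cr1 allele (GFP or Cre) therefore changes with the deletion, and both cannot be told apart. The labels name 2 sorts. The CX3CR1hi sort holds 1 WT array and the Il10_KO array. The resident sort holds 3 WT arrays and 2 Il10ra_mKO arrays. The RNA kit named for samples 1 and 2 differs from that of the others, which makes kit and sort inseparable if that numbering follows the series order, so mutants were compared only with WT of their own sort. Nothing in the labels says whether arrays came from separate animals or from pools, so the p-values below rest on a spread that may be technical. In sorted bulk RNA, fewer cells of a type and less RNA per cell cannot be told apart.

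The deleted gene separated the labelled genotypes. Il10ra was at log2 10.56, 10.76 and 11.12 in resident WT, against 8.05 and 7.04 in Il10ra_mKO. The Il10 transcript had like levels in the CX3CR1hi pair, 11.04 in WT and 10.75 in the library labelled Il10-deficient. The position of its probes against the deletion is unknown here, which leaves this level no check, and the direction of that comparison rests on the label.

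Macrophage markers were bright in all arrays, with a mean log2 level of 11.69 to 11.83 in resident WT, 11.82 and 11.98 in Il10ra_mKO, 11.83 in CX3CR1hi WT and 12.07 in Il10_KO, with Lyz2 the brightest. Transcripts of other cells were present too. The 12 epithelial markers averaged 9.98 to 10.36 in resident WT but 10.19 and 8.55 in Il10ra_mKO arrays 1 and 2, with Krt8 the brightest and 1 of the 12 higher in the mutant mean. The 10 fibroblast and muscle markers averaged 7.11 to 7.59 in resident WT and 6.65 and 6.57 in Il10ra_mKO, with Dcn the brightest and 1 of the 10 higher. The 11 neutrophil markers averaged 5.20 to 5.25 in resident WT and 5.75 and 5.33 in Il10ra_mKO, with Ly6g the brightest and 10 of the 11 higher. Of these neutrophil genes 7 (Camp, Ngp, Mpo, Elane, Ltf, Cxcr2 and Mmp8) stayed below log2 5.86, the median of all values, in every array. Both Il10ra_mKO arrays lay above all resident WT arrays for the average of the monocyte list (8 genes measured, 7.92 and 8.30 against at most 7.79, Ccr2 the brightest, 4 of 8 higher in the mutant mean), the dendritic cell list (8 genes, 6.89 and 7.15 against at most 6.36, Dpp4 the brightest, 7 of 8 higher), the B and plasma cell list (6 genes, 7.48 and 8.22 against at most 7.27, Jchain the brightest, 5 of 6 higher) and the T cell and ILC list (8 genes, 6.33 and 6.40 against at most 6.32, Cd4 the brightest, 8 of 8 higher). The 7 endothelial and glial markers averaged 5.86 and 5.79 against 5.81 to 6.00, with Pecam1 the brightest and 1 of the 7 higher. Also below log2 5.86 in every array were 5 T cell and ILC genes (Cd3d, Cd3g, Cd8a, Gata3, Thy1) and 3 dendritic cell genes (Flt3, Zbtb46, Itgae). So were 2 monocyte, 2 fibroblast and muscle, and 4 endothelial and glial genes. In resident WT and Il10ra_mKO, Dpp4 averaged 8.64 and 8.31, Jchain 11.58 and 11.41, Cd4 10.59 and 10.62, and Ccr2 10.54 and 10.64. The part of these other cells in the differences below was not tested.

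The promoters of the members are shown first, because NF-kB is known to switch on several of its own inhibitors. RefSeq promoter sequences (build GRCm38.p6) matched 9 of the 10 members, all but Nfkbiz, and the 250 bases before each annotated start were searched on both strands for the kappaB consensus, the 10-base site that NF-kB dimers bind. At least 1 match stood upstream of 6 of the 9 matched members (Nfkbia, Nfkbie, Nfkbid, Tnfaip3, Tnip1 and Tnip3), while 8.23% of the 27025 genes with a promoter sequence had one in the same length. None was found for Nfkbib, Bcl3 or Irak3. The palindrome TTCNNNGAA, to which STAT factors such as the IL-10-activated STAT3 can bind, was found for 2 of the 9, Nfkbid and Tnip1, against 8.13% of all genes. For Nfkbid it lay upstream of the 1st and 3rd annotated starts, and not of the 2nd, which carries the kappaB matches. A match is a description of these letters and not evidence of binding. The sequences of 5 members with a kappaB match are printed 5′ to 3′ with the matches in capitals. Nfkbia, Nfkbid and Tnip1 are shown because both Il10ra_mKO arrays lay above every resident WT array for them. Tnfaip3 and Tnip3 are shown as examples that carry matches while the arrays overlapped. Nfkbie also carries a match and its arrays overlapped, but its sequence is not printed.
Nfkbia (chr12:55492648-55492897, minus strand): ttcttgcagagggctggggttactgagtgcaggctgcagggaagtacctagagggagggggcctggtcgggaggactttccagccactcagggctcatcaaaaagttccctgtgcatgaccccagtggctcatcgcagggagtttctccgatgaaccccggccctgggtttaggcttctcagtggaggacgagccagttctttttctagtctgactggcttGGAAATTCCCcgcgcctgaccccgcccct
Nfkbid, the 2nd of 3 annotated starts (chr7:30422156-30422405, plus strand): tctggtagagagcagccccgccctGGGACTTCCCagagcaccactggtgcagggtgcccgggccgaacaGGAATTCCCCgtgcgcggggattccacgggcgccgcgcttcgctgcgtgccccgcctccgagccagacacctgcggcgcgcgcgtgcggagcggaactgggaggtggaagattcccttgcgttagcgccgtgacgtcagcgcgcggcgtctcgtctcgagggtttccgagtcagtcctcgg
Tnip1 (chr11:54962941-54963190, minus strand): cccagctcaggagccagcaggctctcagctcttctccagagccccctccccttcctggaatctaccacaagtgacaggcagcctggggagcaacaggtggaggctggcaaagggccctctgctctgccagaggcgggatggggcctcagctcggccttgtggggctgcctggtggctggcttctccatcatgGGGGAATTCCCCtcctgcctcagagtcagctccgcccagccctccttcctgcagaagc
Tnip3 (chr6:65590148-65590397, plus strand): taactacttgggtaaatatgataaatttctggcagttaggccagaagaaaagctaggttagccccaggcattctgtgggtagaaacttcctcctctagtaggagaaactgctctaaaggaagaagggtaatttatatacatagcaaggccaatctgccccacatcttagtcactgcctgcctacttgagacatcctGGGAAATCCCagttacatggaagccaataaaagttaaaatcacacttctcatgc
Tnfaip3, the 1st of 2 annotated starts (chr10:19015411-19015660, minus strand): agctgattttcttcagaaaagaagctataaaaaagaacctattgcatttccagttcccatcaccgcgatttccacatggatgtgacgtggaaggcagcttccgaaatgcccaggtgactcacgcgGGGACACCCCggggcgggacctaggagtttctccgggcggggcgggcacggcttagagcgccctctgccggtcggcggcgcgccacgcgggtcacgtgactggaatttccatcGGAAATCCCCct
The Nfkbia match GGAAATTCCC ended 20 bases before the start. In Tnip1 the capitals are 3 overlapping matches that form a single symmetrical run. The Nfkbid matches lay farther out, ending 217 and 172 bases before that start, and the Tnfaip3 matches ended 116 and 3 bases before it. The single Tnip3 match GGGAAATCCC ended 45 bases before its start.

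In the resident Il10ra_mKO arrays the members stood slightly above their WT level. None of them passed the threshold of an adjusted p under 0.05 by limma over all genes (adjusted p from 0.343 to 0.957). At that threshold 1 gene passed in all, which is 0.00502% of the genes tested. The mean was higher in Il10ra_mKO than in WT for 10 of 10 members, against 48.5% of all genes and 55.7% of the 10558 genes above the brightness level of log2 5.86 in at least 2 arrays, where all members lie. The median difference of the members was 0.41 on the log2 scale, and that of all genes was 0. Differences ran from 0.07 for Tnfaip3 to 0.80 for Nfkbid, and 0 of 10 members were 2-fold or more higher (0.953% of all genes). At an unadjusted p under 0.05 by limma, 3 of 10 members were higher and 0 lower, against 4.06% and 3.86% of all genes, and 6.79% higher among those above the brightness level. Both Il10ra_mKO arrays lay above all 3 resident WT arrays for 4 members (Nfkbia, Nfkbid, Tnip1 and Irak3), an order that 8.92% of all genes and 14.6% of the genes above the brightness level had. The reverse order occurred for 0 members and for 8.50% of all genes.

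**Figure D1:**
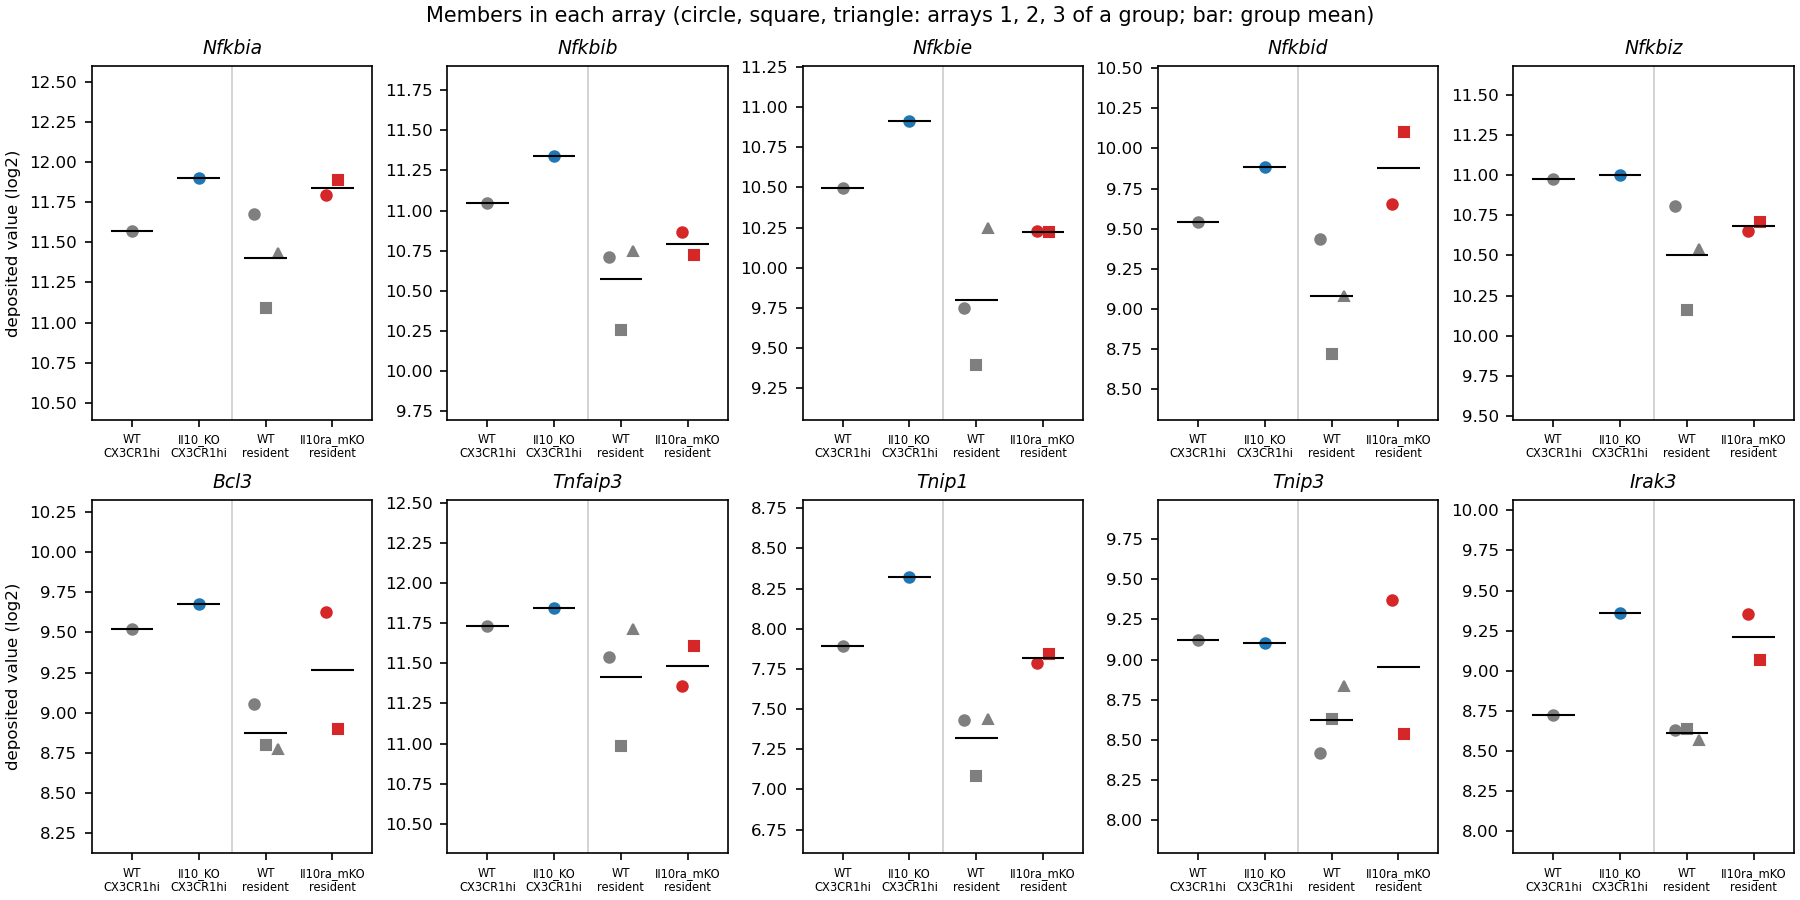
Each panel plots the deposited log2 value (vertical axis, the same span of 2.2 log2 units in every panel) of 1 member in each array, by genotype and sort on the horizontal axis, with arrays 1, 2 and 3 of a group as circle, square and triangle and the group mean as a bar. The resident Il10ra_mKO arrays clear all resident WT arrays for Nfkbia, Nfkbid, Tnip1 and Irak3, and overlap them for the other 6 members.

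Among the classical IkB proteins, Nfkbia, the main and fastest resynthesised inhibitor, was at log2 11.67, 11.09 and 11.43 in resident WT, against 11.79 and 11.89 in Il10ra_mKO. Both mutant arrays were above the range of WT, by a small margin over WT array 1. The difference was 0.44 ± 0.20 (SE), or 1.36-fold, with an adjusted p of 0.678 by limma, and it was 0.29 without WT array 2. Nfkbib, which encodes IkB-beta, the slower-turning inhibitor, was at 10.71, 10.26 and 10.75 in WT, against 10.87 and 10.73 in Il10ra_mKO. Only WT array 2 stood clearly lower, and the groups overlapped (difference 0.22 ± 0.19, adjusted p = 0.716 by limma). Without that array the difference was 0.065. Nfkbie, which encodes IkB-epsilon, was at 9.75, 9.40 and 10.25 in WT, against 10.23 and 10.22 in Il10ra_mKO. The mutant arrays sat beside WT array 3 and above the other two (difference 0.43 ± 0.28, adjusted p = 0.678 by limma). Without WT array 2 the difference was 0.23, and without WT array 3 it was 0.65.

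The atypical IkB proteins spanned from the largest difference of the members to one near 0. Nfkbid encodes IkB-NS, a nuclear protein known to limit Il6 induction in macrophages. It was at log2 9.43, 8.72 and 9.08 in resident WT, against 9.65 and 10.10 in Il10ra_mKO, so both mutant arrays were above WT. Its difference was the largest of the members, 0.80 ± 0.28 or 1.74-fold, with an adjusted p of 0.627 by limma and a 95% interval, not adjusted for the number of genes, of 0.0053 to 1.59. It exceeded the difference of 98.5% of all genes. Nfkbiz encodes IkB-zeta, which is needed for a second wave of NF-kB targets. It was at 10.81, 10.16 and 10.54 in WT, against 10.65 and 10.71 in Il10ra_mKO, inside the WT range (difference 0.18 ± 0.22, adjusted p = 0.784 by limma, 95% interval -0.44 to 0.80). The difference was 0.006 without WT array 2 and 0.33 without WT array 1. Bcl3, a nuclear partner of the p50 and p52 dimers, was at 9.05, 8.80 and 8.77 in WT, against 9.63 and 8.90 in Il10ra_mKO. Mutant array 1 was high while mutant array 2 fell inside the WT range, and the difference of 0.39 ± 0.26 (adjusted p = 0.678 by limma) was 0.02 without array 1 and 0.75 without array 2.

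In the A20 group the enzyme itself and its partners differed in their values. Tnfaip3 encodes A20, which trims ubiquitin chains from signalling complexes. It was at log2 11.54, 10.99 and 11.71 in resident WT, against 11.36 and 11.61 in Il10ra_mKO, inside the WT range. Its difference was the smallest of the members, 0.07 ± 0.27 (adjusted p = 0.957 by limma, 95% interval -0.68 to 0.82), and it was -0.14 without WT array 2 and -0.05 without Il10ra_mKO array 2. Tnip1 encodes ABIN-1, which brings A20 to ubiquitin chains. It was at 7.43, 7.08 and 7.44 in WT, against 7.79 and 7.84 in Il10ra_mKO, both above every WT array. The difference was 0.50 ± 0.14, or 1.41-fold, with an adjusted p of 0.512 by limma and a 95% interval of 0.10 to 0.89. Tnip3 encodes ABIN-3, a related A20-binding protein. It was at 8.42, 8.63 and 8.83 in WT, against 9.37 and 8.54 in Il10ra_mKO, so mutant array 1 was the highest of the resident arrays and mutant array 2 the second lowest. Its difference of 0.33 ± 0.31 (adjusted p = 0.746 by limma) was -0.09 without Il10ra_mKO array 1 and 0.74 without array 2. Among the resident arrays, Bcl3, Tnip3, Irak3 (9.35) and Nfkbib (10.87) were highest in Il10ra_mKO array 1. That array also had the highest mean of the neutrophil markers (5.75, against 5.20 to 5.33 in the other resident arrays), of which 10 of 11 did not reach the brightness level. Its mean of the monocyte markers was the highest as well (8.30, against 7.31 to 7.92). The other marker lists had their highest mean in another resident array. The part of these cells in the values of these members was not tested.

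Irak3 had the tightest WT values of the members. It encodes a kinase-dead relative of the IRAK kinases that holds back signalling from Toll-like and IL-1 receptors and is known from tolerant macrophages. Irak3 was at log2 8.63, 8.64 and 8.57 in resident WT, a mean of 8.61 ± 0.037 (SD, n = 3), and at 9.35 and 9.07 in Il10ra_mKO. The lower mutant array lay 0.43 above the highest WT array. The difference was 0.60 ± 0.10, or 1.51-fold, with a 95% interval of 0.31 to 0.89. It had the smallest p of the members (unadjusted p = 0.00481 by limma), and the adjusted p over all genes was 0.343. Without any one resident array the difference stayed between 0.46 and 0.74, and over all 13 alternatives its adjusted p was 0.0579 to 0.783.

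Resident WT array 2 was the lowest WT array for 7 of 10 members, namely Nfkbia, Nfkbib, Nfkbie, Nfkbid, Nfkbiz, Tnfaip3 and Tnip1. By the same count 24.4% of all genes and 23.5% of those above the brightness level were lowest there. Equal lowest values were counted for the first tied array, so genes tied with WT array 1 are missing from these shares. WT array 2 was also lowest for 4 of 4 measured NF-kB subunit genes, for 12 of 16 NF-kB target genes, for 10 of 16 genes upstream of IKK and for 6 of 6 repressors and feedback genes that IL-10 can induce. It was lowest for 7 of 17 other negative regulators, 0 of 2 IKK genes and 0 of 4 genes known to need IkB-zeta. The median difference of the members was 0.31 without this array and 0.41 with it, and without it 9 of 10 members, all but Tnfaip3, had a higher mutant mean. The sample numbers in the titles fall into neighbouring runs, 54 to 56 (WT arrays 1 and 2 with Il10ra_mKO array 1) and 67 and 68 (WT array 3 with Il10ra_mKO array 2), and the labels do not say what a run shares. Within 54 to 56 the mutant was higher for 10 of 10 members (43.3% of all genes and 52.7% of those above the brightness level), with a median of 0.55. Within 67 and 68 it was higher for 6 of 10 (44.3% of all genes and 48.6% of those above the brightness level), with a median of 0.15. The mutant was higher within both runs for 25.5% of all genes and 34.4% of those above the brightness level, and for 6 of 10 members, namely Nfkbia (0.41 and 0.45), Nfkbid (0.58 and 1.02), Nfkbiz (0.17 and 0.17), Bcl3 (0.70 and 0.13), Tnip1 (0.53 and 0.41) and Irak3 (0.72 and 0.50). Tnip3 was at 0.85 within the first run and at -0.30 within the second.

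**Figure D2:**
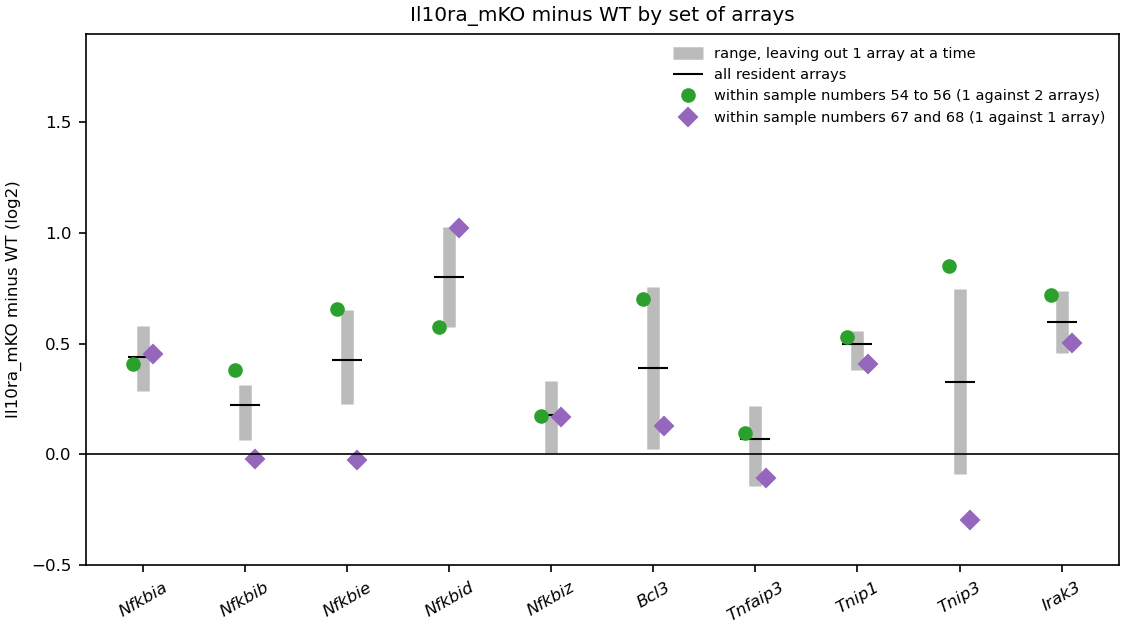
For each member the plot gives the difference Il10ra_mKO minus WT (log2, vertical axis) over all resident arrays (black dash), its range when 1 array at a time is left out (grey bar), and the values within sample numbers 54 to 56 (circle) and 67 and 68 (diamond). Nfkbia, Nfkbid, Tnip1 and Irak3 stay at 0.29 or higher throughout, whereas Tnip3 runs from 0.85 within the first run to -0.30 within the second. Both mutant arrays lie above all WT arrays for Nfkbia, Nfkbid, Tnip1 and Irak3, so the sign of these differences was fixed and only their size is informative.

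In CX3CR1hi macrophages of Il10-deficient mice the differences of the members were small as well, and they come from 1 array against 1, with no replicate check. The Il10_KO array was above its WT partner for 9 of 10 members, against 56.3% of all genes and 60.8% of those above the brightness level. The median difference was 0.31 for the members and 0.03 for all genes. No member differed 2-fold or more, a size at which 0.692% of all genes were higher and 1.22% lower. Irak3 had the largest difference, at 9.36 against 8.72 in WT, or 1.55-fold. Tnip1 was at 8.32 against 7.89, Nfkbie at 10.91 against 10.49, Nfkbid at 9.89 against 9.54, Nfkbia at 11.90 against 11.57 and Nfkbib at 11.34 against 11.05. Bcl3 (9.68 against 9.52), Tnfaip3 (11.84 against 11.73), Nfkbiz (11.00 against 10.98) and Tnip3 (9.10 against 9.12) lay close to their WT partner.

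In the limma fit, which takes the spread for these lone arrays from the resident arrays, 0 of 10 members passed (adjusted p from 0.125 for Irak3 to 0.988 for Tnip3), while 7.90% of all genes did. Of the 10558 genes above the brightness level, where all members lie, 200 passed in this fit. With genes below that level left out before fitting, 2 genes in all passed. The epithelial markers averaged 10.73 in the WT array and 10.18 in the Il10_KO array, and the fibroblast and muscle markers 7.10 and 6.40. The Il10ra_mKO and Il10_KO differences have no control array in common. The test of the difference between them by limma was passed by 0 of 10 members (adjusted p from 0.874 to 1.00) and by 4.70% of all genes. For Irak3 the interval of this difference was -0.57 to 0.49 and for Nfkbid -1.01 to 1.92 on the log2 scale, so these arrays do not show whether the effects are alike.

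**Figure D3:**
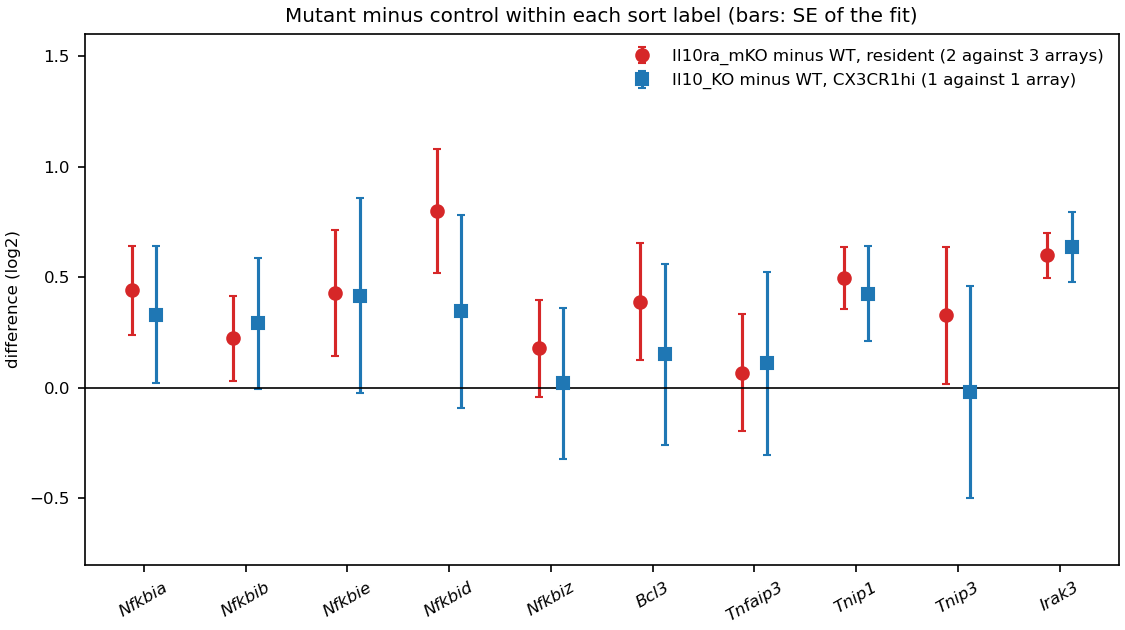
The plot sets the difference mutant minus WT (log2, vertical axis, bars: SE of the limma fit) for each member in resident arrays (circles, 2 against 3 arrays) beside that in CX3CR1hi arrays (squares, 1 against 1 array, SE taken from the resident arrays). Irak3 stands at 0.60 and 0.64, and the members near 0 in the CX3CR1hi arrays are Nfkbiz and Tnip3.

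Between the sorts, all 10 members had a lower mean in resident WT than in the CX3CR1hi WT array, from 0.11 lower for Irak3 and 0.17 lower for Nfkbia to 0.65 lower for Bcl3 and 0.70 lower for Nfkbie on the log2 scale. The same order held for 48.4% of all genes and for 81.4% of those above the brightness level. Sort label and, as far as the numbering holds, RNA kit change together here with 1 array on a side, so no test was made. Nfkbia in the CX3CR1hi WT array (11.57) fell inside the resident WT range of 11.09 to 11.67, and Tnfaip3 at 11.73 lay just above its range of 10.99 to 11.71.

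The rest of the pathway was read from lists of genes by role. Some genes stand in more than one list: Il6 and Il12b as targets and as genes that need IkB-zeta, and Zfp36 as a negative regulator and as an IL-10-induced gene. For the counts below, 48.5% of all genes and 55.7% of those above the brightness level had a higher mean in Il10ra_mKO. Of 4 measured NF-kB subunit genes all were higher in the Il10ra_mKO mean, with a median difference of 0.19, and 1 had an unadjusted p under 0.05, Relb (0.32 ± 0.11, adjusted p = 0.627 by limma), the partner of p52 in the slower branch of the pathway. The IKK list had 2 measured genes, of which the kinase gene Ikbkb was at 0.41 ± 0.10 (adjusted p = 0.482 by limma). Among 16 adaptors, kinases and ubiquitin ligases upstream of IKK, 15 were higher, the median was 0.23, and for 9 of them both mutant arrays lay above all WT arrays, an order of 8.92% of all genes and 14.6% of those above the brightness level. The largest with an unadjusted p under 0.05 were Traf6, the ubiquitin ligase of Toll-like receptor signalling (0.54 ± 0.15), and Sharpin (0.48 ± 0.12) and Rnf31 (0.39 ± 0.090), parts of the enzyme complex that builds linear ubiquitin chains. None of these 3 passed over all genes (adjusted p from 0.442 to 0.507 by limma).

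Other negative regulators of the pathway, from the deubiquitinase Cyld to the adaptor Tollip, had a median difference of 0.06. Of these, 11 of 17 were higher, against 55.7% of the genes above the brightness level. N4bp1, an inhibitor of NF-kB signalling, had the largest difference of this list, at 9.76, 9.45 and 9.84 in resident WT against 10.42 and 10.59 in Il10ra_mKO, a difference of 0.83 ± 0.15 (adjusted p = 0.369 by limma). Nlrx1 was at 0.23 ± 0.069 (adjusted p = 0.558 by limma). The repressors and feedback genes that IL-10 is known to induce had a median of 0.22 with 5 of 6 higher, and none had an unadjusted p under 0.05. Socs3, the STAT3 feedback inhibitor, had the smallest p there and was at 9.72, 9.02 and 9.38 in WT against 10.27 and 9.89 in Il10ra_mKO (0.71 ± 0.27, adjusted p = 0.666 by limma).

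All 16 measured NF-kB target genes had a higher mean in Il10ra_mKO, as had 48.5% of all genes and 55.7% of those above the brightness level. Their median was 0.70 against 0.41 for the members. At an unadjusted p under 0.05 by limma 6 of them were higher, against 4.06% of all genes and 6.79% of those above the brightness level. Ccl5, a chemokine for T cells, was at 9.56, 9.08 and 9.62 in resident WT, against 12.66 and 12.09 in Il10ra_mKO (2.96 ± 0.27, adjusted p = 0.208 by limma). Il12b, the chain shared by IL-12 and IL-23, was at 5.95, 5.68 and 5.60 in WT, against 7.53 and 7.81 in Il10ra_mKO (1.93 ± 0.15, adjusted p = 0.172 by limma). Tnfaip2 was at 1.36 ± 0.40. Both mutant arrays lay above all WT arrays for 10 of the 16 targets, Ccl5, Il12b and Tnfaip2 among them. That order held for 8.92% of all genes and 14.6% of those above the brightness level. Other targets of the list had differences as small as those of the members, such as 0.15 for the chemokine Ccl3 and 0.43 for Tnf. Targets and members were not tested against each other. Of 4 genes known to need IkB-zeta, Lcn2, an iron-binding antimicrobial protein, was at 5.22, 5.37 and 5.32 in WT, against 8.20 and 6.88 in Il10ra_mKO (2.24 ± 0.44, adjusted p = 0.389 by limma), next to the 0.18 of Nfkbiz itself. Csf3, the gene of the neutrophil growth factor G-CSF, was near the floor in both groups, at 4.64 and 4.65 on average. Il6 was at 5.37, 4.89 and 4.89 in WT, against 7.03 and 5.67 in Il10ra_mKO. The WT values of Il6 and Lcn2, and those of Il12b in WT arrays 2 and 3, lie below log2 5.86, so these differences start near the floor of the scale.

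**Figure D4:**
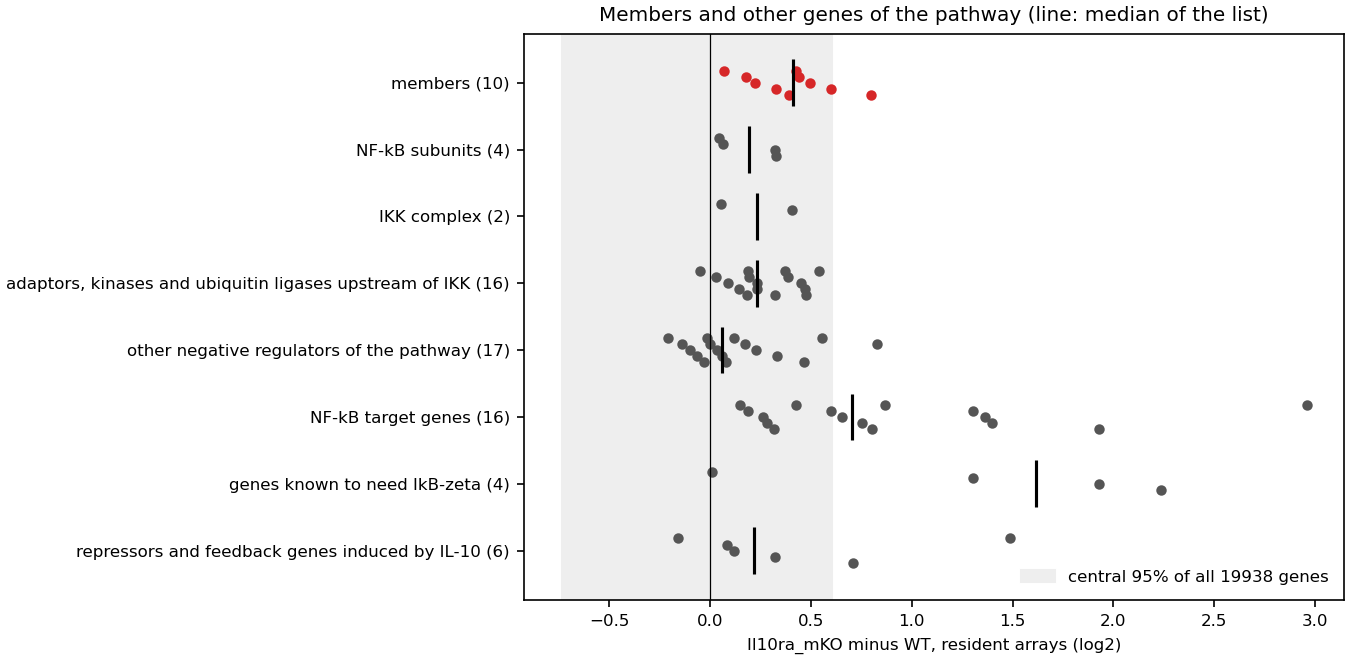
Each point is the difference Il10ra_mKO minus WT (log2, horizontal axis) of 1 measured gene, by list on the vertical axis with its number of measured genes, the line marks the list's median, and the grey band holds the central 95% of all 19938 genes (-0.74 to 0.60). The members centre on 0.41, the other negative regulators on 0.06 and the NF-kB target genes on 0.70.

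The genes whose pattern over the 7 arrays was most like that of a member were ranked by Pearson r after the mean of each sort was subtracted, among 2153 genes that varied at least as much as the median member. With 7 arrays many genes reach a high r, and all arrays share their composition and processing, so the names are a description. The difference between genotypes was left in the values and enters r, and every gene named here had a higher mean in Il10ra_mKO. Tnip1 was closest to Zc3h12c (r = 0.995), Ralgds and Clcn7, and Irak3 to Clca4b (r = 0.992), Trem1 and Pla2g2a. Nfkbid was closest to Gramd1b (r = 0.987), Slc49a4 and Ncf1, and Nfkbia to Fbrs (r = 0.971), Slc49a4 and Acot9. Nfkbie was closest to Prr5l (r = 0.989), Hilpda and Pim3, and Nfkbib to Pim1 (r = 0.979), Pvr and Gpr132. Tnfaip3 was closest to the inflammasome sensor gene Nlrp3 (r = 0.988), Impact and Ifrd1, and Nfkbiz to Ifit1 (r = 0.973), Tnf and Ccl4. Bcl3 was closest to Ngp (r = 0.984), Cdc42ep2 and Pde11a, and Tnip3 to Slc51b (r = 0.951), Ly6g and Uck2. Ngp and Ly6g are neutrophil markers, and Ngp did not exceed log2 5.74 in any array.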

How the data were processed

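The authors deposited 1 table of log2 expression values for the 7 arrays, with RMA (background correction, normalization and probe summary) and Partek named in the submitters' processing notes. Neither the versions and genome build nor a joint normalization of the arrays is stated in the sources used here. The log2 scale was read from the values, which run from 3.55 to 14.8 with array medians of 5.77 to 5.92. RMA compresses low values, and the number of arrays limits precision. Of 35399 probe sets, 21789 carry 1 gene symbol, and the brightest per gene gave 19938 genes.

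Tests used limma 3.58.1 (R 4.3.3) (1 mean per genotype and sort, all 7 arrays, eBayes with a variance trend, 3 residual degrees of freedom), two-sided, with Benjamini-Hochberg adjustment over all genes. The fit of Il10ra_mKO against WT was tested on simulated data with independent noise. The Il10_KO comparison, the difference of the effects and genes with almost no spread were not part of that test. Genes measured by no probe set with a single symbol were not analysed here. The members and lists were chosen with earlier results of these data known. Named were all members, Il10ra, Il10, up to 3 genes per list and direction with an unadjusted p under 0.05 (otherwise the smallest p), the brightest of each marker list, and the 3 genes most like each member. Csf3, Il6, Ccl3 and Tnf were named after their values were seen. The alternatives were a brightness filter, no trend, robust eBayes, quantile normalization, median centring, mean of probe sets, resident arrays alone, sample-number runs as a block, and each resident array left out.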

Additional observations from a re-analysis of the deposited data

How the results depend on the processing

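No member passed an adjusted p of 0.05 by limma under any of the 13 alternatives for Il10ra_mKO or the 6 for Il10_KO. The median difference of the members stayed between 0.31 and 0.46 for Il10ra_mKO and between 0.27 and 0.36 for Il10_KO. The members with a higher mean numbered 9 to 10 and 8 to 10, a count added after the data were seen. Signs turned for Tnfaip3 and Tnip3 in the Il10ra_mKO comparison and for Nfkbiz and Tnip3 in the Il10_KO comparison. For Il10ra_mKO with single arrays left out, Tnfaip3 ran from -0.14 (without resident WT array 2) to 0.22, and was -0.054 without Il10ra_mKO array 2, and Tnip3 ran from -0.089 (without Il10ra_mKO array 1) to 0.74. For Il10_KO, Nfkbiz was at -0.053 after quantile normalization and Tnip3 at 0.028 after centring each array. The members with an unadjusted p under 0.05 numbered 1 to 4, and those with both Il10ra_mKO arrays above all WT arrays 4 to 7, when single arrays were left out, which leaves fewer arrays to overlap. Where 1 Il10ra_mKO array is left, it is assumed to vary as the WT arrays do.

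The number of genes called over the whole table depended on the fit. Some genes have the same deposited value in every resident array, which leaves them very little spread in the fit. The part of such genes in these numbers was not tested. For Il10ra_mKO it was 1, and 12 with the brightness filter, 4 without the trend, 114 after quantile normalization, 146 after centring, 0 with sample-number runs as a block and 0 to 267 without single arrays. For Il10_KO it was 1576, and 2, 758, 1043, 21 and 31 with the filter, no trend, robust eBayes, quantile normalization and centring. For the difference of the effects it was 937, and 1, 30, 387, 8 and 17 in the same order. The labels give no replicate numbers that would pair samples, and no member passed with sample-number runs as a block. Dim genes and the few arrays limit what can be seen.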
